A study of Mus musculus with 24 samples.

Results

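The genes described here are 10 skeletal muscle genes whose RNA was present in mouse eye cups, the tissue that remains when the neural retina has been taken out (RPE, choroid and sclera according to the labels). They are the rows whose symbol was Acta1, Ckm, Myh1, Myh2, Myh3, Myh4, Myh8, Myh13, Mylpf or Tnnt3, 10 of the 56748 genes in the table. Their counts were read in 24 libraries, 1 eye cup and 1 neural retina from each of 12 mice. The mice were PRDM13-OE or wildtype littermates. PRDM13-OE mice were heterozygous for a cassette at Rosa26, in which a ubiquitous promoter drives the doxycycline-dependent transactivator and a responsive promoter drives human PRDM13, so that the transgene is not restricted to the eye or to a cell type. Mice of both genotypes were untreated or drank doxycycline (dox) at 2 mg/mL with 10% sucrose for 72 hours from postnatal day 28, and each of the 4 conditions held 3 mice. Dox was always given with sucrose, so their effects cannot be told apart. Counts on genes summed to between 15825059 and 24908314 per eye cup and between 16034800 and 21513207 per retina, and no 2 libraries of the same group were copies of each other.

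Skeletal muscle contracts when myosin heavy chains, the motor proteins of the thick filament, pull on actin in the thin filament. Adult fast fibres use Myh1 (type IIx), Myh2 (type IIa) or Myh4 (type IIb). Myh3 (embryonic) and Myh8 (perinatal) are used during development and regeneration and, in the muscles that move the eye, also in adult life. Myh13 is the superfast myosin known from extraocular and laryngeal muscle. Acta1 encodes skeletal actin, Mylpf the fast regulatory light chain, and Tnnt3 fast troponin T, which anchors the calcium switch to the thin filament. Ckm is the muscle creatine kinase that regenerates ATP. The extraocular muscles insert on the sclera, and their stumps can stay on a dissected eye cup.

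The 6 myosin genes lie in a row on the plus strand of chromosome 11 (GRCm39), in the order Myh3 (66969126 to 66993117), Myh2 (67061853 to 67088343), Myh1 (67090878 to 67115401), Myh4 (67128855 to 67151272), Myh8 (67167950 to 67199460) and Myh13 (67212484 to 67262412). Ckm (19138701 to 19156766), Mylpf (126808062 to 126813470) and Tnnt3 (142052573 to 142069746) are on chromosome 7, and Acta1 (124618508 to 124621490, minus strand) is on chromosome 8. All 10 listed positions overlapped the gene of that name in GENCODE vM39. The myosins resemble one another in sequence, which sets how well short reads can be told apart. The coding stretch of 60 bases on which they were most alike had the same base in all 6 genes at 58 positions. It is shown 5′ to 3′ on the plus strand of GRCm39, with its position and exon, and capitals mark the bases that differ from Myh4.
Myh3 (chr11:66979399-66979458, exon 15): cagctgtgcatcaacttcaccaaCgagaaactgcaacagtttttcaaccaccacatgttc
Myh2 (chr11:67071616-67071675, exon 14): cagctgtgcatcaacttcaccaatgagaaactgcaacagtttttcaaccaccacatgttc
Myh1 (chr11:67098261-67098320, exon 14): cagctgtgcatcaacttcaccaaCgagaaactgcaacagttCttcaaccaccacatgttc
Myh4 (chr11:67137212-67137271, exon 13): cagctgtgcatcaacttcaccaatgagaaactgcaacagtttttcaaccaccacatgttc
Myh8 (chr11:67179040-67179099, exon 15): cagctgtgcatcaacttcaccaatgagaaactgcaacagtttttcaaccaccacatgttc
Myh13 (chr11:67232256-67232315, exon 14): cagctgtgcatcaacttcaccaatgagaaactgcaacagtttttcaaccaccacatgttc
A read lying wholly within this stretch matches Myh2, Myh4, Myh8 and Myh13 equally well. The stretch of 60 bases on which they were least alike, near the start of the coding sequence, had the same base in all 6 at 19 positions, and is shown with capitals used in the same way.
Myh3 (chr11:66970968-66971027, exon 3): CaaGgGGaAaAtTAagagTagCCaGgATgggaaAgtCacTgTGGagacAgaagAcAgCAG
Myh2 (chr11:67064085-67064144, exon 2): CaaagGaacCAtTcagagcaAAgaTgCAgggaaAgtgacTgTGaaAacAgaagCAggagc
Myh1 (chr11:67092851-67092910, exon 2): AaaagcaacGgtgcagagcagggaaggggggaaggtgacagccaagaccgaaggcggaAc
Myh4 (chr11:67131593-67131652, exon 1): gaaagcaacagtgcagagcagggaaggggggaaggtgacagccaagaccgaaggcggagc
Myh8 (chr11:67169832-67169891, exon 3): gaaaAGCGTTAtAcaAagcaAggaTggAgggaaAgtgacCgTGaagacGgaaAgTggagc
Myh13 (chr11:67218072-67218131, exon 2): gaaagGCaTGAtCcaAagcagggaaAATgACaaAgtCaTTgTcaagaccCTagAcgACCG
In this stretch Myh1 still differed from Myh4 at only 3 bases, whereas Myh2 differed at 18, Myh8 at 19, Myh13 at 24 and Myh3 at 26. Over the aligned coding sequences, identity ran from 77.4% between Myh3 and Myh13 to 91.0% between Myh2 and Myh1. Of the 50-base windows of each coding sequence, 28.1% of those of Myh2, 27.9% of those of Myh1, 22.7% of those of Myh8 and 19.6% of those of Myh4 occurred unchanged in another gene. The same share was 8.81% for Myh13, 4.99% for Myh3, 2.87% for Acta1 and 0% for Mylpf, Tnnt3 and Ckm. With windows of 150 bases it was 2.61% for Myh1, 2.15% for Myh2, 1.70% for Myh8, 1.45% for Myh13, 0.529% for Myh4 and 0.317% for Myh3, so longer reads leave less doubt. The read length and how the authors' counting treated reads that match several genes are not given in the sources used here. The split among Myh1, Myh2, Myh4 and Myh8 may therefore be less certain than the level of Myh3 or of the genes outside the cluster. The same holds for Myh13, which had at most 14 counts in an eye cup. Genes on the opposite strand overlap Myh2, Myh1, Tnnt3 and Ckm, and had at most 2, 17, 73 and 94 counts in a library.

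In eye cups, Mylpf and Acta1 were the most abundant of the 10 genes, and Myh8 and Myh13 the least. Levels are compared between genes as FPKM, in which counts are divided by gene length and sequencing depth. Mylpf had 267 ± 204 FPKM (SD, n = 12 eye cups), rank 161 among the 56748 genes, and Acta1 had 221 ± 170 FPKM, rank 204. The thin filament gene Tnnt3 had 79.0 ± 61.5 FPKM. Among the motors, the level was 27.3 ± 24.7 FPKM for Myh4, 13.1 ± 11.5 FPKM for Myh1, 9.72 ± 10.5 FPKM for Myh3 and 3.02 ± 2.34 FPKM for Myh2, and the creatine kinase Ckm lay among them at 18.2 ± 15.4 FPKM. Myh8 had 0.280 ± 0.217 FPKM and Myh13 0.0488 ± 0.0414 FPKM. In this order, neighbours differed by less than the larger of their SDs, apart from Myh2 over Myh8 and Myh8 over Myh13. Eye cup by eye cup the order held better than these SDs, since Acta1 was above Tnnt3, Tnnt3 above Myh4 and Myh2 above Myh8 in 12 of 12 eye cups, whereas Mylpf was above Acta1 in 7 of 12.

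Myh13, the myosin that marks extraocular fibres, was close to the floor. It had 1, 14 and 0 counts in the eye cups of PRDM13-OE mice with dox, 7, 6 and 0 in untreated PRDM13-OE, 9, 7 and 2 in wildtype with dox, and 10, 2 and 7 in untreated wildtype. Thus 5 of 12 eye cups held at most 3 counts, which was used throughout as the limit that a count of 0 allows (for counting error only), and every group ranged from at most 2 counts upwards. The median was 6.5 counts per eye cup, beside 57.5 for Myh8, 367 for Myh2, 843.5 for Myh3 and 1501.5 for Myh4. The RNA therefore carried the genes of fast skeletal muscle with little of the extraocular myosin, and the muscle is not named here beyond skeletal muscle.

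All 10 genes were higher in the eye cup than in the neural retina. Acta1 had between 1639 and 13347 counts in eye cups (median 4731) and between 31 and 273 in retinas (median 49). Mylpf had between 1132 and 10939 (median 4111) and between 25 and 119 (median 34). For both genes the lowest eye cup was above the highest retina. Within each mouse, Acta1 was 17.4 to 317-fold higher in the eye cup (median 111-fold, CPM) and Mylpf 25.9 to 359-fold higher (median 92.5-fold). The fitted log2 fold change was 6.61 (SE 0.40, edgeR quasi-likelihood test, Benjamini-Hochberg adjusted p = 1.85e-11) for Acta1 and 6.78 (SE 0.39, adjusted p = 6.66e-12) for Mylpf.

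The other 8 genes were near or below 3 counts in most retinas. Myh4 had 646 to 6815 counts in eye cups (median 1501.5) and was at 0 in 9 of 12 retinas, and Tnnt3 had 621 to 4985 (median 1431) and was at 0 in 8. In the mice whose retina was at 0, the eye cup was at least 269 to 2458-fold higher for Myh4 and at least 164 to 1895-fold higher for Tnnt3, with the retina set to the limit of 3 counts. Ckm had 176 to 2705 counts in eye cups (median 672) against 0 to 45 in retinas (median 4.5). Myh1 had 240 to 3473 counts (median 969.5) against 0 to 85 (median 1), and Myh2 had 12 to 896 (median 367) against 0 to 40 (median 0). The developmental myosins followed the same pattern, with 4 to 4356 counts of Myh3 and 8 to 169 of Myh8 in eye cups against 0 to 67 and 0 to 6 in retinas (medians 0).

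**Figure D1:**
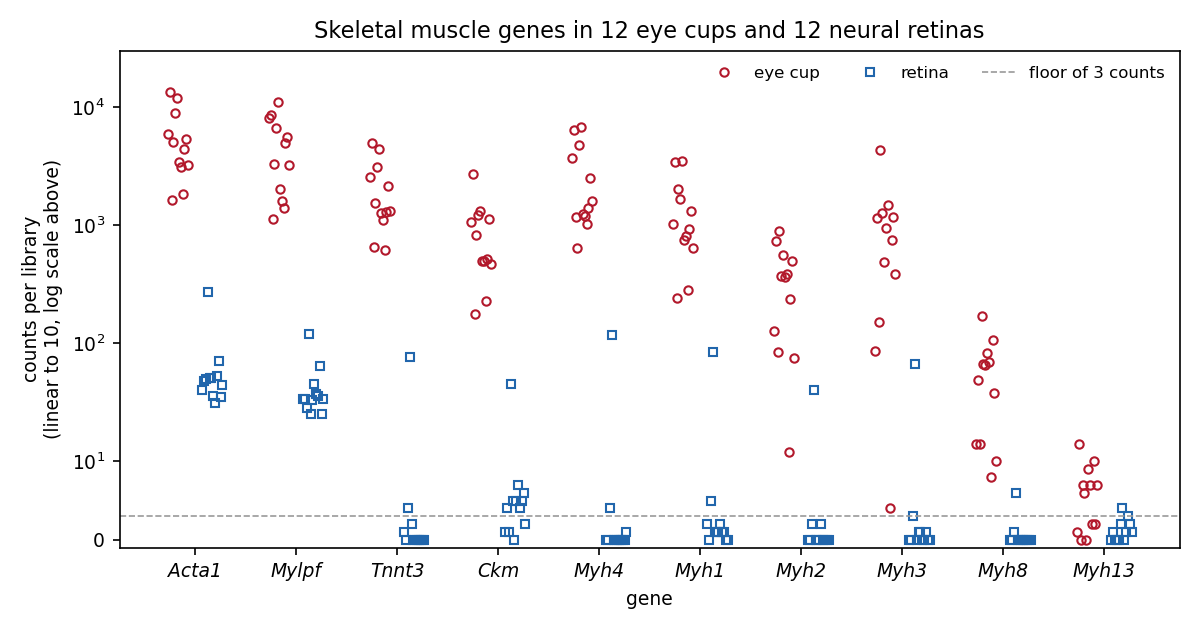
Counts per library (vertical axis, linear up to 10 and logarithmic above) of each of the 10 genes in 12 eye cups (red circles) and 12 neural retinas (blue squares), with the floor of 3 counts as a dashed line. All genes but Myh13 are separated by tissue in most mice, and a lone retina, that of untreated PRDM13-OE mouse 1, lies above the others for 9 of the 10 genes.

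The retina of untreated PRDM13-OE mouse 1 stood apart from the other retinas. It held 829 counts of the 10 genes, against a median of 87.5 over the 12 retinas and a lowest value of 68. It had 273 counts of Acta1, 119 of Mylpf, 117 of Myh4, 85 of Myh1, 77 of Tnnt3 and 67 of Myh3. It also had 45 counts of Ckm, 40 of Myh2 and 6 of Myh8, but 0 of Myh13. In that mouse Myh4 was 5.16-fold higher in the eye cup, the lowest such value among its pairs. Leaving this mouse out changed no call.

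A gene counts as called when its adjusted p is under 0.05 and its log2 fold change lies beyond 1 in either direction. By that rule all 10 genes passed as higher in the eye cup, where 24.2% of the 26034 genes tested were called higher and 18.4% lower. The highest adjusted p among the 10, that of Myh13, was 0.00505. The 10 calls remained when each mouse was left out in turn and in a fit that blocked on the mouse, and with DESeq2. When each of the 4 conditions was tested alone, 9 of 10 genes were called in each, where 19.0% to 25.9% of all genes were called higher, and Myh13 was the exception. In bulk RNA, more muscle cells and more RNA per muscle cell cannot be told apart.

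Taken as a sum, the 10 genes made up between 0.0216% and 0.239% of the counts of an eye cup (median 0.0780%), and between 0.000373% and 0.00499% of those of a retina. The sum in eye cups was 1082, 2398 and 299 CPM (counts scaled to the size of the library) in PRDM13-OE mice with dox, 949, 1642 and 2489 in untreated PRDM13-OE, 592, 550 and 214 in wildtype with dox, and 630, 1304 and 508 in untreated wildtype. The 3 wildtype eye cups with dox were thus among the lower ones, and the lowest and highest mice of the PRDM13-OE dox group were far apart. Variation between mice of a group was large for every one of these genes. The fitted coefficient of variation between mice of a group ran from 56.3% for Mylpf to 109% for Myh3, against 41.0% for the median gene of 23837.

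The mix of myosins also varied from one eye cup to the next. Myh4 held the largest share of the summed FPKM of the 6 myosins in 10 of 12 eye cups, and its share ran from 8.34% to 77.9% (median 58.0%). Myh1, the type IIx myosin, was steadier and ran from 14.0% to 29.6% (median 22.4%). Myh2 had 0.777% to 9.75%, Myh8 0.148% to 1.65%, and Myh13 0% to 0.296%.

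The share of the embryonic myosin Myh3 ran from 0.305% to 55.9% (median 15.0%). Its share was 1.77%, 9.96% and 9.32% in PRDM13-OE mice with dox and 55.9%, 15.7% and 4.40% in untreated PRDM13-OE. It was 28.7%, 39.0% and 0.305% in wildtype with dox and 22.6%, 21.6% and 14.3% in untreated wildtype. Myh3 was the leading myosin in untreated PRDM13-OE mouse 1 and in wildtype mouse 2 with dox, and was nearly missing, at 4 counts, in wildtype mouse 3 with dox. The 3 PRDM13-OE mice with dox lay below the 3 untreated wildtype mice, every other pair of groups overlapped, and the shares were not tested. In untreated PRDM13-OE mouse 1 the type IIb myosin was also at its lowest, with 646 counts of Myh4 beside 4356 of Myh3.

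**Figure D2:**
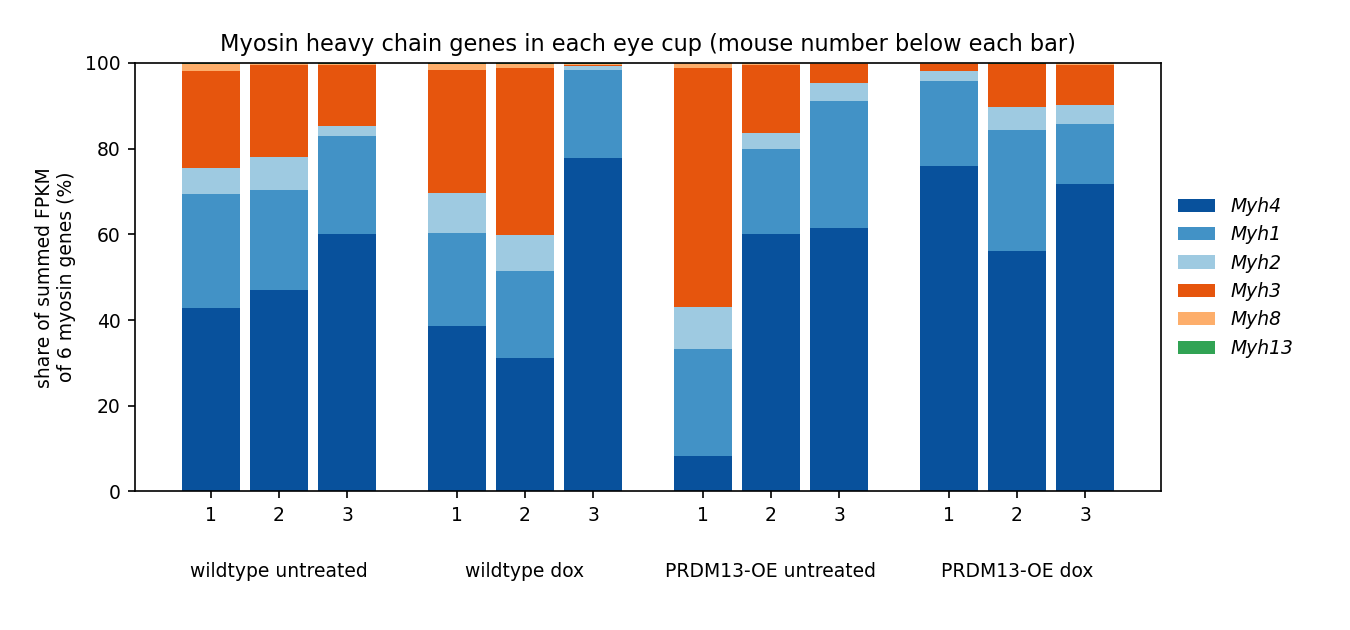
Share of each myosin heavy chain gene in the summed FPKM of the 6 genes (vertical axis, %), 1 bar per eye cup, with 3 mice in each of 4 conditions. Myh4 and Myh1 make up most of each bar except in untreated PRDM13-OE mouse 1, where Myh3 reaches 55.9%.

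The 10 genes therefore did not move as a fixed block, and the ratios between them show which ones kept together. The SD of the log2 ratio over the 12 eye cups was lowest between Acta1 and Tnnt3 (0.17), whose ratio stayed within a 1.49-fold range while Acta1 varied 10.7-fold and Tnnt3 11.7-fold in CPM. It was 0.32 between Tnnt3 and Ckm and 0.41 between Mylpf and Tnnt3. Among the 7 genes of adult fast fibres (Acta1, Mylpf, Tnnt3, Ckm, Myh1, Myh2 and Myh4), the median SD over the 21 pairs was 0.65. It was 1.70 over the 14 pairs of an adult with a developmental gene, and 1.68 between Myh3 and Myh8 themselves. The largest value, 2.76, was that of Myh3 to Myh4, a ratio that ran from 0.00392 to 6.70 in FPKM. Among the adult genes Myh2 stood furthest from the rest, with an SD of 1.76 against Myh4. Myh13 was left out because of its low counts, and these values are a description, since the genes share libraries and depth.

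**Figure D3:**
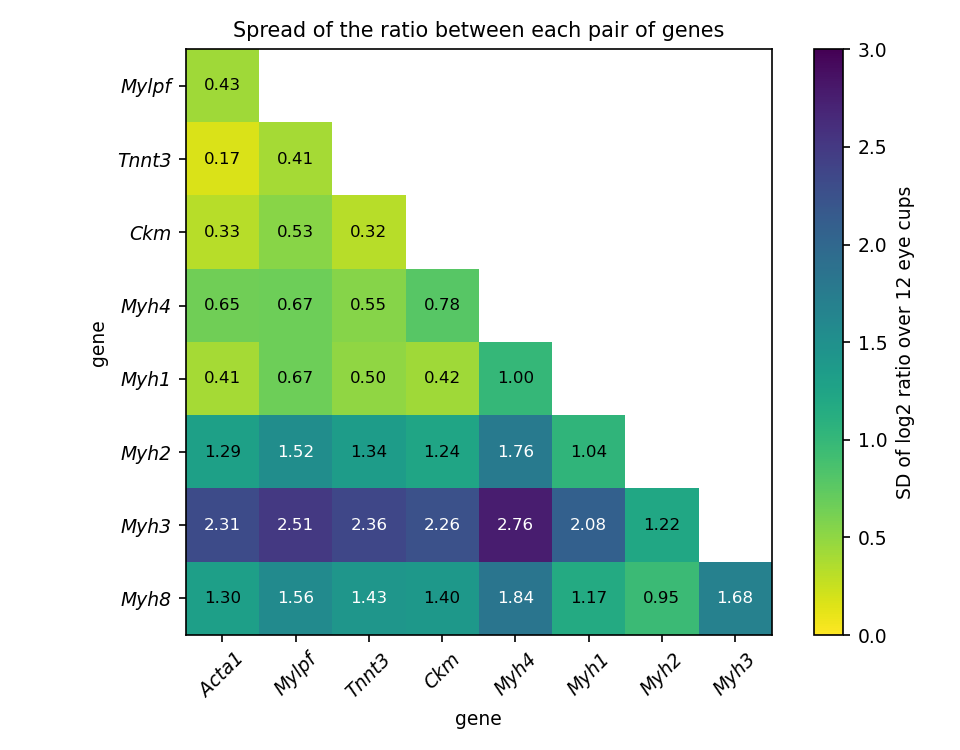
SD over 12 eye cups of the log2 ratio between each pair of 9 genes (darker for larger; axes list the genes). The thin filament, light chain and creatine kinase genes have values near or under 0.5 among themselves, and the row of Myh3 holds the largest ones, up to 2.76 with Myh4.

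Whether PRDM13 changed the muscle genes of eye cups was asked by setting PRDM13-OE mice with dox against wildtype mice with dox. Mylpf had 390, 492 and 64.5 CPM in PRDM13-OE eye cups and 113, 85.6 and 55.5 CPM in wildtype eye cups. Myh4 had 176, 374 and 66.3 CPM against 70.0, 63.6 and 40.4 CPM. In both genes PRDM13-OE mice 1 and 2 were above all wildtype mice, and mouse 3 fell within their range. The same held for Acta1, with 282, 774 and 93.4 CPM against 191, 167 and 72.6 CPM, for Tnnt3, with 123, 289 and 37.1 against 71.0, 58.9 and 24.7, and for Ckm, with 50.9, 157 and 10.0 against 27.7, 26.4 and 9.04. Myh1 likewise had 48.7, 200 and 13.7 CPM against 41.9, 43.4 and 11.2 CPM.

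The developmental and type IIa myosins did not follow. Myh3 had 4.12, 67.0 and 8.66 CPM in PRDM13-OE mice with dox and 52.5, 80.1 and 0.159 CPM in wildtype mice with dox. Myh8 had 0.671, 2.84 and 0.798 CPM against 4.58, 3.70 and 0.319 CPM. Myh2 had 6.13, 42.6 and 4.84 CPM against 20.2, 20.6 and 0.478 CPM. The groups overlapped for each of these 3 genes.

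**Figure D4:**
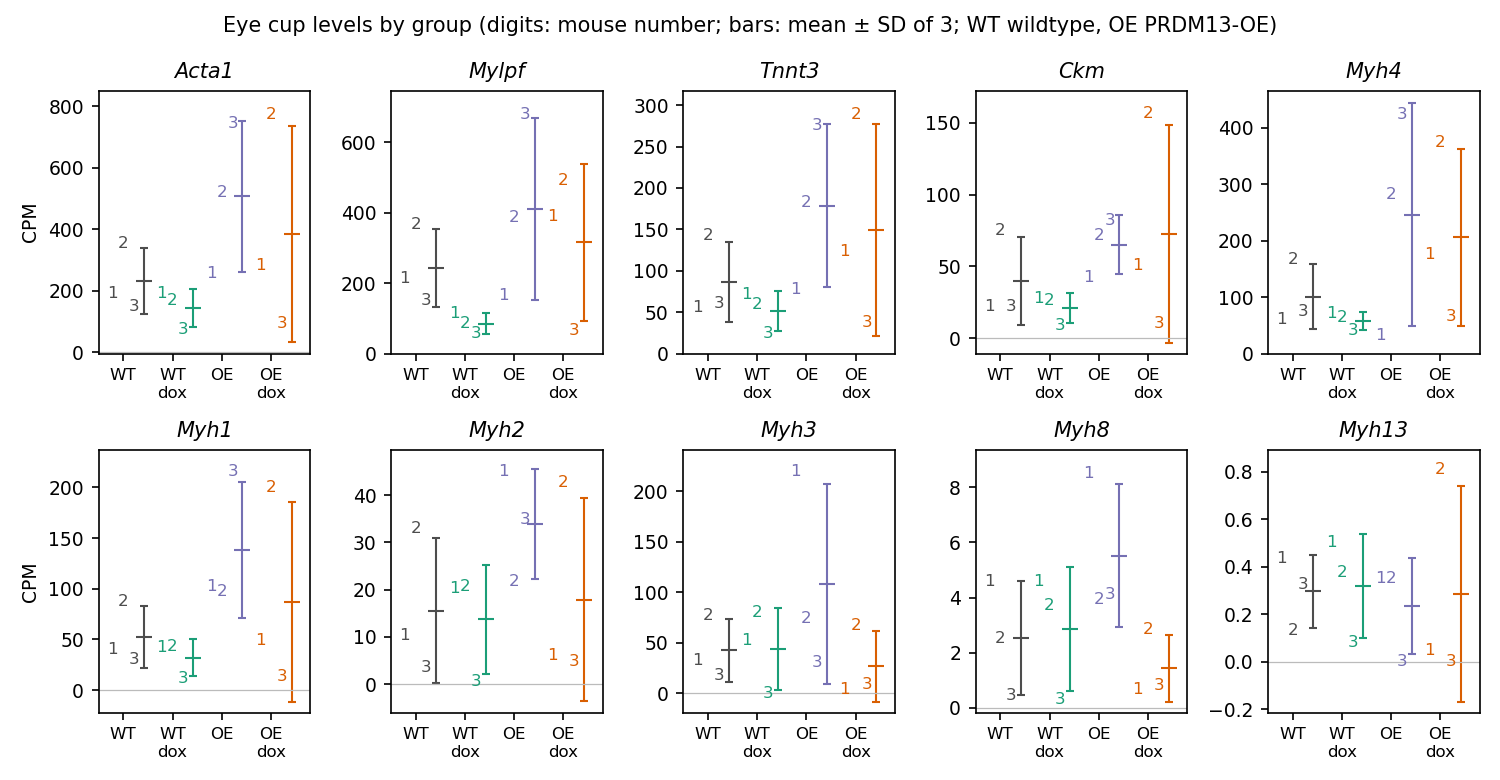
CPM (vertical axes, 1 scale per gene) of the 10 genes in the 12 eye cups, by group. Digits are mouse numbers and bars are the mean ± SD of 3 mice, and the groups overlap in most panels, with PRDM13-OE dox mouse 2 high and mouse 3 low for the fast fibre genes.

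None of the 10 genes was called in this comparison by edgeR or by DESeq2, where edgeR called 0.0046% of 21758 genes higher and 0.0138% lower and DESeq2 called 0.285% and 0.271%. For Mylpf the log2 fold change was 1.93 (SE 0.67, adjusted p = 0.597 with edgeR) and for Myh4 1.85 (SE 0.56, adjusted p = 0.597), and these 2 genes had an unadjusted p under 0.05, as did 8.24% of all genes tested. The log2 fold change was 1.80 (SE 0.87) for Ckm, 1.56 (SE 0.69) for Tnnt3, 1.46 (SE 0.90) for Myh1 and 1.44 (SE 0.71) for Acta1. It was 0.39 (SE 1.20) for Myh2, -0.14 (SE 1.32) for Myh13, -0.73 (SE 1.53) for Myh3 and -0.97 (SE 0.92) for Myh8. The median of the 10 was 1.45, beside 0.05 for all genes tested.

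The call turned on PRDM13-OE dox eye cup 3. Without it, 4 of the 10 genes were called higher, where 2.58% of 21237 genes were called higher and 5.74% lower. These were Mylpf (log2 fold change 2.41, SE 0.31, edgeR adjusted p = 0.0136), Myh4 (2.27, SE 0.35, adjusted p = 0.0174), Tnnt3 (2.02, SE 0.48, adjusted p = 0.0431) and Ckm (2.32, SE 0.56, adjusted p = 0.0454). This eye cup had the highest rod signal of its group, with 36202 CPM summed over 10 rod genes against 12380 and 5471 in the other PRDM13-OE eye cups with dox, and the lowest sum of the muscle genes. The wildtype eye cups with dox had 47379, 36206 and 24983 CPM of the rod genes. Of the sums over 12 marker lists of other tissues, 2 did not overlap between the genotypes here, and their part in the result was not tested. The 9 lens crystallins summed to 191 to 810 CPM in PRDM13-OE and 937 to 3386 CPM in wildtype. The 5 blood genes summed to 12.1 to 14.7 CPM and 236 to 568 CPM, and the adult globins Hbb-bt (log2 fold change -6.33, edgeR adjusted p = 0.0300) and Hbb-bs (-5.27, adjusted p = 0.0254) were called lower. The 8 genes of the surface epithelium, keratins among them, overlapped between the genotypes, with sums of 41594, 25080 and 8027 CPM in PRDM13-OE and 8569, 8957 and 16924 CPM in wildtype. PRDM13-OE dox eye cup 3 had the lowest of these sums. The estimate was above 0 for 8 of these 8 genes, with log2 fold changes of 0.86 to 1.97 and no gene called, and their part in the result was not tested.

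**Figure D5:**
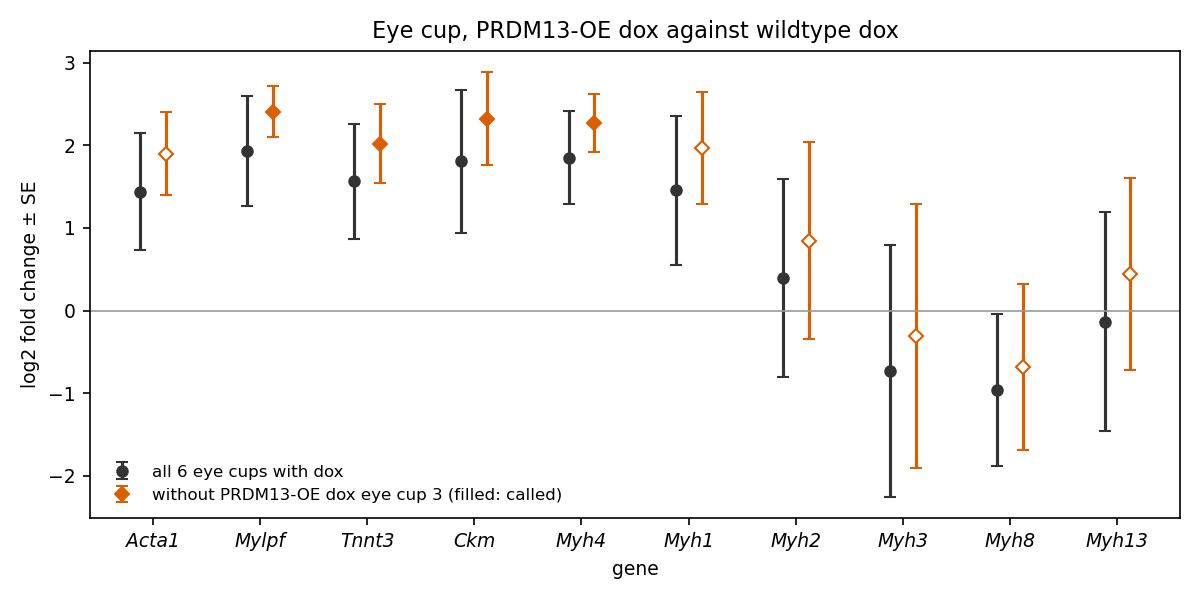
Log2 fold change (vertical axis, ± SE) of each gene in eye cups of PRDM13-OE mice with dox against wildtype mice with dox, with all 6 eye cups (circles) and without PRDM13-OE dox eye cup 3 (diamonds, filled where called). Without that eye cup Mylpf, Tnnt3, Ckm and Myh4 are called, and Myh3 and Myh8 remain below 0.

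The untreated mice show genotype without dox. No gene of the 10 was called by edgeR or DESeq2. Of the 21588 genes tested, edgeR called 0% in either direction, and DESeq2 called 2 higher and 1 lower. Acta1 had 255, 521 and 745 CPM in untreated PRDM13-OE eye cups and 190, 353 and 150 CPM in untreated wildtype, a log2 fold change of 1.15 (SE 0.47, adjusted p = 1.00 by edgeR). Myh1 had 102, 97.4 and 216 CPM against 40.0, 87.3 and 29.8 CPM. The log2 fold change of Myh1 came to 1.41 (SE 0.48, adjusted p = 1.00 by edgeR). The log2 fold change of Myh4 was 1.32 (SE 0.83). The estimate was above 0 for 9 of the 10 genes, with Myh13 as the exception, and 2 had an unadjusted p under 0.05 (Acta1 and Myh1), as did 1.87% of all genes tested. Of the sums over 12 marker lists of other tissues, 1 did not overlap between these groups, that of the lens crystallins, with 403 to 653 CPM in PRDM13-OE and 737 to 3931 CPM in wildtype, and its part in these levels was not tested.

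Dox without the cassette was compared in wildtype mice. Mylpf had 113, 85.6 and 55.5 CPM with dox and 213, 365 and 150 CPM without. This was a log2 fold change of -1.53 (SE 0.36, adjusted p = 0.0685 by edgeR), so it was not called, and 1 of the 10 genes, Mylpf, had an unadjusted p under 0.05, beside 29.9% of all genes tested. Of the 21799 genes tested, edgeR called none (0%). Mylpf was called lower by DESeq2, which called 2.74% of genes lower and 6.29% higher. It was also called lower without a filter on low counts (1.24% of genes lower, 2.41% higher) and without untreated wildtype eye cup 1 (2.15% lower, 7.26% higher). Acta1 (log2 fold change -0.70, SE 0.41) and Myh4 (-0.80, SE 0.37) were not called in any of these. The RPE genes summed to 9836 to 19810 CPM in the 3 wildtype eye cups with dox and to 28645 to 44857 CPM in the untreated ones, while the rod genes summed to 24983 to 47379 CPM and to 3018 to 23698 CPM. The tendon genes summed to 279 to 365 CPM with dox and 453 to 726 CPM without, and the endothelial genes to 399 to 582 and 597 to 1179 CPM. These 4 of the 12 marker sums did not overlap between the groups, and their part in the level of Mylpf was not tested.

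In PRDM13-OE mice, eye cups with and without dox were set side by side, which reuses samples of the comparisons above. Myh3 had 4.12, 67.0 and 8.66 CPM with dox and 219, 74.3 and 30.6 CPM without, a log2 fold change of -2.04 (SE 1.12, adjusted p = 0.975 by edgeR). Myh8 had 0.671, 2.84 and 0.798 CPM with dox and 8.50, 3.93 and 4.10 CPM without. For Myh8 the log2 fold change came to -1.96 (SE 0.68, adjusted p = 0.975 by edgeR), and that of Myh1 was -0.71 (SE 0.86). No gene of the 10 was called by edgeR or DESeq2, and 1 (Myh8) had an unadjusted p under 0.05 (4.14% of all genes did), where edgeR called 0% of 21604 genes higher and 0.0139% lower and DESeq2 called 0.0555% and 0.218%. Of the 12 marker sums of other tissues, 3 did not overlap between these groups. The blood genes summed to 12.1 to 14.7 CPM with dox and 569 to 1159 CPM without, the RPE genes to 7489 to 20822 and 21547 to 55527 CPM, and the genes of myelinated nerve to 217 to 1059 and 1420 to 6304 CPM. Their part in the levels of Myh8 and Myh3 was not tested.

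The difference between the dox effects of the genotypes was tested as an interaction over the 12 eye cups. No gene of the 10 was called by edgeR or DESeq2, and none had an unadjusted p under 0.05 with edgeR (6.4% of all genes did). Of the 23837 genes tested, edgeR called 0%, and DESeq2 called 10 higher and 16 lower. The interaction on the log2 scale was 1.14 (SE 0.94) for Mylpf, -2.09 (SE 1.97) for Myh3 and -2.12 (SE 1.32) for Myh8. In retinas with dox, 4 of the 10 genes had enough counts to be tested, and none was called by edgeR or DESeq2, where edgeR called 0.905% of 20560 genes higher and 1.5% lower and DESeq2 called 0.652% and 1.26%. The log2 fold change there was -0.32 (SE 0.24) for Mylpf and -1.38 (SE 0.73) for Ckm, and no unadjusted p was under 0.05 (26.6% of all genes had one).

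Muscle genes outside the 10 were read from 7 lists with 82 genes. In each list between 5 and 16 genes were called higher in the eye cup than in the retina. The main edgeR test called no gene of these lists in a comparison within eye cups. In wildtype eye cups with dox against untreated ones, edgeR called 4 of 81 lower without a filter on low counts (1.24% of all genes). There it called 4 of 75 lower without untreated wildtype eye cup 1 (2.15%) and 2 of 75 without wildtype dox eye cup 3 (571 of 21199 genes). DESeq2 called 5 of 75 lower in wildtype eye cups with dox against untreated ones, where it called 2.74% of 21799 genes lower, and none in the other comparisons. Of the fast fibre list, 10 of 11 tested genes were called higher in the eye cup than in the retina and 0 lower, where 24.2% of all genes were called higher. Its most abundant gene was Pvalb, the calcium buffer of fast fibres, with 195 ± 148 FPKM (SD, n = 12), although the retina also had 311 to 444 counts of it. Its least abundant detected gene was Ampd1, the muscle AMP deaminase, with 2 to 53 counts. Tnnc2, fast troponin C, was listed at 0 in all 24 libraries, although its partners Tnni2 and Tnnt3 had at least 591 and 621 counts in every eye cup, so the listed 0 may not be a measured absence. In PRDM13-OE against wildtype mice with dox, no gene of the 7 lists was called by edgeR or DESeq2, and 11 of 77 tested were called higher by edgeR without PRDM13-OE dox eye cup 3, where 2.58% of all genes tested were called higher. The median log2 fold change was 1.56 over the 11 fast fibre genes tested, 0.99 over 16 sarcomere scaffold genes and 0.83 over 12 genes of excitation-contraction coupling. It was 0.49 over 11 muscle metabolism genes, 0.29 over 12 slow or cardiac fibre genes, 0.27 over 9 myogenic regulators and 0.25 over 7 neuromuscular junction genes, beside 0.05 over all genes tested. An unadjusted p under 0.05 was found for 5, 1, 2, 1, 0, 0 and 0 of these genes in the same order. Without dox the medians between the genotypes were 0.96, 0.98, 1.08, 0.40, 0.42, 1.03 and -0.16 for the same lists in that order, beside -0.0043 over all genes tested, and 2, 3, 6, 1, 1, 0 and 0 genes had an unadjusted p under 0.05. With dox the median was higher for the fast fibre list and lower for the myogenic regulators than without it, the neuromuscular junction median changed sign, and none of these differences between medians was tested.

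Of all genes tested, 24.2% were called higher in the eye cup than in the retina and 18.4% lower. Of the sarcomere scaffold list, which holds titin and its partners at the Z-disc and M-band, 16 of 16 genes were called higher in the eye cup. Tcap, the titin cap, was at 59.0 ± 45.1 FPKM and Myom2, an M-band protein, at 4 to 24 counts. The slow or cardiac fibre list had 8 of 12 genes higher and 1 lower. Its most abundant gene was the cardiac actin Actc1 with 9.82 ± 6.30 FPKM, and its least abundant was the cardiac myosin Myh6 with 0 to 7 counts. Among the genes that couple excitation to contraction, 9 of 12 were higher and 1 lower, from Jsrp1 (7.33 ± 5.13 FPKM), a junctional membrane protein, to Stac3 (1 to 66 counts).

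The remaining lists cover the muscle's nerve contact, precursor cells and energy supply. Of 9 neuromuscular junction genes, 5 were higher and 0 lower, beside 24.2% and 18.4% of all genes tested. The acetylcholine receptor anchor Rapsn was at 16.5 ± 6.27 FPKM, whereas the receptor subunit Chrnd had 0 to 7 counts. Of 10 myogenic regulators, 7 were higher and 0 lower. Pax7, the marker of satellite cells, was the least abundant of them with 0 to 9 counts. Of 11 muscle metabolism genes, 6 were higher and 0 lower, and the most abundant was Cox8b, a cytochrome oxidase subunit of muscle and brown fat, with 516 ± 282 FPKM. Phkg1, the muscle phosphorylase kinase subunit, was the least abundant with 12 to 88 counts.

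The genes outside the 10 whose levels followed them most closely over the 12 eye cups were Eno3, Tcea3, Des, Srl and Tcap. Likeness was measured as Pearson's r of log2(FPKM + 1) with the mean of the standardized profiles of the 10 genes, among the 17426 genes whose counts in the eye cups added up to 100 or more. It was 0.974 for Eno3, the muscle enolase, with 509 to 3853 counts in eye cups. It was 0.974 for Tcea3, a transcription elongation factor, with 71 to 228 counts, and 0.972 for Des, which encodes desmin, the intermediate filament of muscle. It was 0.970 for Srl, which encodes sarcalumenin of the sarcoplasmic reticulum, and 0.964 for Tcap. Among the 10 genes themselves, each of which enters the mean profile, r was highest for Myh1 (0.977) and Acta1 (0.960) and lowest for Myh8 (0.607) and Myh13 (0.476). The order depended on the measure, since Des ranked 6 with a pseudocount of 0.1, and Des, Srl and Tcap ranked 6, 7 and 8 when deviations from group means were used. These values share libraries and depth and are given as a description.

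Eye cups also held RNA of tissues next to muscle, and the amounts varied. Over the 12 eye cups, 6 tendon genes summed to 180 to 851 CPM (median 409), 8 smooth muscle genes to 122 to 393 CPM (median 235), and 6 genes of orbital fat to 23.8 to 140 CPM (median 57.2). The 6 genes of myelinated nerve, as in the optic nerve, summed to 217 to 6304 CPM. Genes of the surface epithelium, which covers the front of the eye, summed to 1269 to 41594 CPM, those of melanocytes to 1265 to 4657 CPM, and those of fibroblasts and sclera to 694 to 3932 CPM. No defining gene of these lists was at 0 throughout. In retinas the tendon genes summed to 19.2 to 60.2 CPM and the smooth muscle genes to 12.3 to 47.4 CPM. The tendon sum was highest, 851 CPM, in untreated PRDM13-OE mouse 3, which also had the highest sum of the 10 muscle genes, and lowest, 180 CPM, in PRDM13-OE dox mouse 1, whose muscle sum was 1082 CPM.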

How the data were processed

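RNA sequencing of 12 eye cups and 12 neural retinas was analysed. The authors deposited raw read counts for each gene in each library, and every test used those counts as they stand. The authors also deposited FPKM values, computed from counts and gene length, which were used to compare genes. Per the labels, CASAVA and HISAT2 were used and the build was GRCm39 (mm39), while the counting tool, annotation release and library strandedness are not given in the sources used here. The authors' deposited log2 fold changes, p-values and adjusted p-values for their own comparisons were not used.

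The quasi-likelihood test of edgeR 4.0.16 (R 4.3.3, TMM factors, no robust fitting) was run wherever a gene's counts in the compared libraries added up to 10 or more, and p-values were adjusted over all genes tested by Benjamini-Hochberg. Calls needed an adjusted p below 0.05 and a log2 fold change beyond 1. CPM are counts scaled with TMM factors within a tissue, and within-mouse ratios used factors over all 24 libraries. A limit of 3 counts stood for a count of 0. The alternatives were DESeq2 1.42.0, library sizes in place of TMM, no filter, filterByExpr, robust fitting, no fold cutoff, all libraries of a tissue, each condition alone, a replicate block and leaving out each library or mouse. The tests were run on simulated data with known changes before use. For PRDM13-OE against wildtype eye cups with dox, edgeR recovered 118 of 200 genes given a log2 fold change of 2, and called 6 unchanged genes. DESeq2 recovered 173 of them and called 70 unchanged genes. For eye cup against retina, edgeR recovered 194 and DESeq2 196.

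All 10 genes were named. From each muscle list the detected genes with the highest and lowest mean FPKM over the 12 eye cups were named, with up to 2 called genes a list and comparison, and the 5 most alike genes. The most abundant gene of 1 muscle list is not reported here. Tnnc2 and the globins were added once their values were known. The 10 genes and the 19 lists were chosen with earlier results of these data known. Eye cup and retina with the same label come from the same mouse, so they are paired by design, and the correlation of their deviations from group means over genes was between -0.00029 and 0.186. Coding sequences were read from GRCm39 with GENCODE vM39 and aligned with MAFFT 7.526. Values were computed in python 3.11.15 with pandas 2.3.3 and numpy 2.4.6, and drawn with matplotlib 3.10.9. Proteins and promoters were not analysed here. The 3 mice of a group are separate animals.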

Additional observations from a re-analysis of the deposited data

How the results depend on the processing

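The count of called genes among the 10 was 10 in the tissue comparison under 18 of its 23 alternatives, the replicate block on each mouse included (10), and 9 under the other 5 (filterByExpr, where Myh13 was not tested, and each condition alone). In PRDM13-OE against wildtype eye cups with dox it went from 0 to 4 without PRDM13-OE dox replicate 3, and stayed at 0 under the other 13 alternatives, so that leaving out 1 library gave 0 to 4. In wildtype eye cups with against without dox it was 1 (Mylpf) with DESeq2, 1 without a filter and 1 without untreated wildtype replicate 1, and 0 under the other 11, with a range of 0 to 1 when 1 library was left out. In the remaining comparisons it was 0 throughout. The replicate block on the mouse number called 0 of the 10 genes in every comparison within eye cups. Mice of different groups share only a number there, since same-numbered eye cups correlated between -0.536 and 0.643, with 7 of 18 pairs over 0.1.

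Among the fold changes in PRDM13-OE against wildtype eye cups with dox, those of 3 genes changed sign when 1 library was left out. Myh13 ran from -3.28 to 0.44, Myh2 from -1.28 to 0.84 and Myh3 from -2.76 to 0.021. The cause was not tested. The 0 to 14 counts of Myh13 per eye cup limit what can be said of it.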
